A study of Sus scrofa with 32 samples.

Results

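Cytosolic ribosomal protein genes were followed across the immune and epithelial cells of pig ileum and blood. Members were all genes whose symbol in the deposited gene list starts with RPL or RPS followed by a number, together with RPSA and the stalk proteins RPLP0, RPLP1 and RPLP2 where listed, and genes of mitochondrial ribosomal proteins and of ribosomal S6 kinases were left out. The rule found 42 genes of 25880, of which 23 encode proteins of the large (60S) and 19 of the small (40S) ribosomal subunit. A further 18 ribosomal protein genes carry only an identifier in the gene list and are named by a separate name table. They are not members and enter one alternative calculation.

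Every cytosolic ribosome is built from ribosomal RNAs and one copy of nearly every ribosomal protein, so cells make these proteins in balanced amounts. Their mRNAs are short, abundant and share a pyrimidine-rich start through which nutrient and growth signals set their translation. Resting lymphocytes keep a store of ribosomal protein mRNA, and activated or dividing cells raise the synthesis of ribosomes along with other growth programs.

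The cells came from 2 mixed-breed pigs of 7 weeks, pig 1 labelled female and pig 2 labelled male, with no treatment or genotype difference between groups. The distal ileum of each pig was dissected in 3 ways, as patch-bearing tissue (PP, for Peyer's patches), as tissue free of patches (non-PP) and as a full cross section (whole ileum), and peripheral blood mononuclear cells (PBMC) were taken from the same animals. Ileal suspensions had been enriched for viable lymphocytes, so the non-lymphoid cells are those that passed this enrichment. Droplet-based single-cell RNA-seq counts unique molecular identifiers (UMIs), each standing for 1 captured RNA molecule, and the 8 libraries held between 21134542 and 40111934 UMIs.

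After quality control (at least 1250 UMIs, at least 550 genes and at most 12.5% mitochondrial UMIs per cell), 48629 cells remained, 3776 to 7704 per library. In whole ileum of pig 1, as labelled, Y-linked genes took 202 UMIs per 1000000 UMIs (counts per 1000000, CPM) of all barcodes, including those outside quality control. The value was 0.686 to 2.57 in the other pig 1 libraries and 115 to 225 in the pig 2 libraries. That library thus goes against its label, and results are also given without it where they change. All other CPM values are taken over the UMIs of the summed cells. Cell barcodes shared between libraries made up 0.556 to 1.23% of the smaller library. Doublet scores marked 3.21% of the cells, which were kept and removed only as an alternative. With 2 pigs, p-values rest on the spread between sums labelled by pig, pooled over the groups of a fit and shared across genes. The pig 1 sums of ileum hold the library labelled whole ileum pig 1. SDs over pigs and fits without a pig thus follow the labels and may not separate the 2 animals.

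Cells were assigned by gates on marker UMIs, with CD3 chains for T, CD79A, CD79B and MS4A1 among the genes for B, JCHAIN for plasma cells, and sets of 5 myeloid and 5 epithelial genes. The T gate can hold innate lymphoid cells with CD3 transcripts. Markers not used for gating followed the labels for B and epithelial cells, while natural killer and myeloid genes were also found in other gates. B genes such as PAX5 and CD22 summed to 962 and 1022 CPM in the ileal B gate and 23 and 22 in the ileal T gate, and epithelial genes such as FABP2 summed to 7396 and 3861 in the epithelial gate and to at most 56 in the others. Natural killer and innate lymphoid genes (NCR1, KLRB1, KLRK1 and FCER1G) summed to 1972 and 1635 CPM in blood myeloid cells. They summed to 1113 and 977 in ileal myeloid cells and to 1593 and 719 in blood T cells. Myeloid genes summed to 1726 and 578 CPM in the epithelial gate, against 7781 and 5806 in the ileal myeloid gate. Of the myeloid list, CD163, FLT3, NLRP3, S100A12 and XCR1 had 0 UMIs in the epithelial gate. The sums were not split by gene, so they do not show the lineage of these transcripts. Their part in the member values of the myeloid and epithelial gates was not tested. JCHAIN stood at 12169 and 32007 CPM in the ileal myeloid gate, against 19 and 213 in the blood myeloid gate. In the plasma gates it was 34533 and 29085 in blood and 73858 and 118153 in ileum. The plasma gate took cells with at most 1 UMI of each of the T, myeloid and epithelial lists. Plasma cells with more myeloid UMIs could thus fall into the myeloid gate, and their part there was not tested.

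All 42 members have a RefSeq position on Sscrofa11.1, for example RPL23 at chr12:23279965-23285538, RPL10 at chrX:124927249-124929791, RPLP0 at chr14:40219196-40223943 and RPSA at chr13:24072551-24081536. The members moved together. Over the 16 sums of cells per gate and pig (5 ileal and 3 blood gates), the level of a member correlated with that of the remaining members at a median r of 0.953, and 37 members were above 0.8. These points share libraries and depth, so the value is a description. RPL10L and RPL3L, paralogs known for testis and striated muscle expression, stood apart with r of 0.238 and -0.056, and had 1 and 42 UMIs in all QC cells. They did not pass the filter on low counts, so 40 members were tested. RPL26L1 and RPL7L1, paralogs of RPL26 and RPL7, came next lowest with r of 0.762 and 0.742. The mRNAs of RPL26 and RPL26L1 are similar, and how the reads were shared between them is uncertain.

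Member genes took 16.2% of all UMIs in QC cells. The share of UMIs from member genes was 20.3 and 20.9% in the blood B gate (pig 1 and pig 2), 17.8 and 17.3% in the ileal B gate, 16.5 and 17.0% in the blood T gate and 16.0 and 14.7% in the ileal T gate. B cells were thus above T cells within each tissue in both pigs. The share was 14.5 and 12.6% in blood myeloid cells and 15.6 and 14.6% in blood plasma cells, so both plasma values lie above both myeloid values. It was 9.79 and 8.87% in ileal myeloid cells, 9.17 and 8.06% in ileal plasma cells and 8.56 and 12.1% in epithelial cells. These 3 ileal gates overlap one another and lie below both ileal lymphocyte gates.

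**Figure D1:**
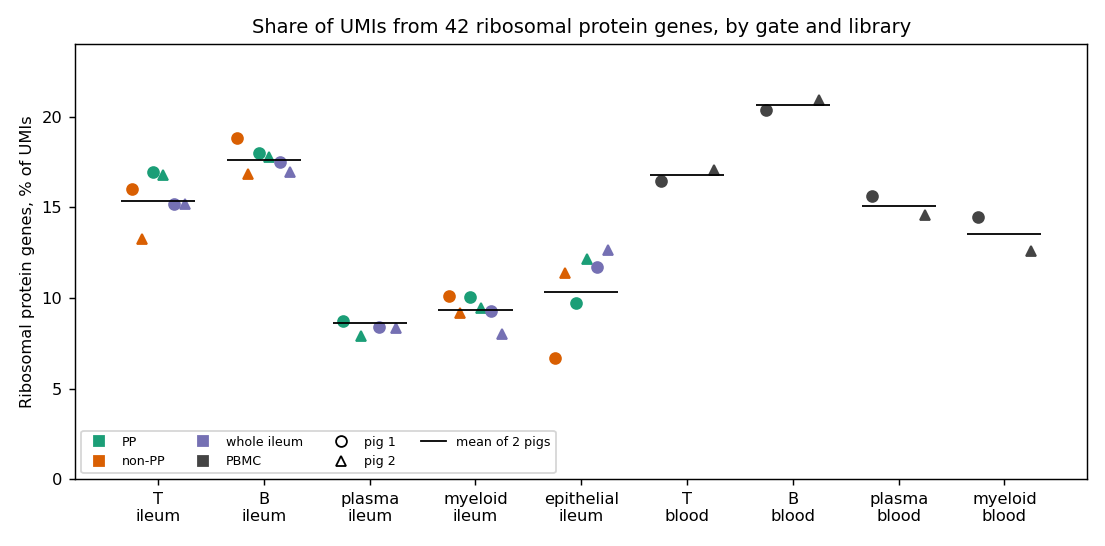
Share of UMIs from the 42 ribosomal protein genes (y axis, % of all UMIs of the cells) in each gate (x axis), with 1 point per library, colored by dissection and shaped by pig, and a line at the mean of the 2 pigs. Library values of gates with under 20 cells are not drawn (ileal plasma of non-PP, 6 and 10 cells), while the line includes them. Blood B cells lie at 20.3 and 20.9%, and all drawn ileal plasma and myeloid points lie at or below 10.1%.

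As mean ± SD over 2 pigs, the share was 20.6% ± 0.416 in blood B and 8.61% ± 0.785 in ileal plasma cells. Counting error was small beside this, since the widest 95% Clopper-Pearson interval among libraries with at least 20 cells of a gate reached 0.207 percentage points to each side, and intervals cover counting error only. Among libraries with at least 20 cells of a gate, the epithelial gate varied most, from 6.67% in the non-PP library of pig 1 to 12.6% in whole ileum of pig 2. In ileal plasma cells the 6 cells of the pig 1 non-PP library stood at 14.3% and the 10 cells of the pig 2 non-PP library at 6.42%, while the libraries with more than 20 plasma cells stood at 7.93 to 8.71%. The 10 most abundant genes took 39.7 and 49.8% of UMIs in ileal plasma cells and 20.3 and 18.5% in blood plasma cells. A share is a part of a whole, and the part of these abundant genes in the member share was not tested.

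Single cells spread widely around these values. In the epithelial gate of pig 2 the 10th and 90th percentiles of the share per cell were 5.43 and 15.8%, and in ileal plasma cells of pig 2 they were 2.36 and 15.4%. In blood B cells of pig 1 they were 16.1 and 24.5%.

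In the ileum, each gate was compared with the mean of the other gates using edgeR's quasi-likelihood test on UMI counts summed per pig, with Benjamini-Hochberg adjustment over 12053 genes. B cells had the most members higher. RPS20, a 40S protein, stood at 13151 and 13177 CPM in ileal B cells, 8532 and 8074 in T cells, 5400 and 7210 in epithelial cells, 5972 and 5382 in myeloid cells and 4598 and 4188 in plasma cells, so the B values overlap with none of the others. It was higher in B cells by 1.01 on the log2 scale (SE 0.103, adjusted p = 4.46e-06). In all, 38 of 40 members were higher in the B gate and 0 lower, where 30.3% of all genes were called higher and 16.1% lower. The median log2 difference was 0.60 for members and 0.14 for all genes. With RLE size factors 22 members were higher. When pig 1 was left out of the ileal sums 8 were higher, and when pig 2 was left out 26, where the lone animal is taken to vary like the blood groups.

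All 19 small subunit members and 19 of 21 tested large subunit members were among those 38. RPS26, which contacts mRNA at the exit channel of the small subunit, differed by 0.98 (SE 0.115, adjusted p = 1.55e-05, edgeR). RPL37, a zinc-binding protein of the large subunit, differed by 0.86 and RPS6, the substrate of S6 kinases, by 0.80. The 2 members not called were RPL10, which joins the large subunit late in its assembly, with 0.17 (SE 0.124), and RPL23 with 0.04 (SE 0.116). RPL23 stood at 4264 and 4170 CPM in ileal B cells and at 6486 and 6062 in ileal T cells, below the T values in both pigs.

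In the T gate 15 members were higher and 0 lower, beside 19.8% and 13.5% of all genes. The median was 0.27 for members and 0.05 for all genes. RPL23 led with 0.69 (SE 0.111, adjusted p = 0.000301, edgeR), followed by RPS27 with 0.60, RPS16 with 0.56, RPL35 with 0.52 and RPL22 with 0.51. RPL22, whose loss blocks alpha beta T cell development in mice, was also higher in B cells, by 0.66. RPS20 did not pass in the T gate (0.12, SE 0.109). With sums per library in place of sums per pig, 29 members were called higher in T cells, and with total UMIs in place of TMM scaling 27. With RLE size factors the number was 8, without pig 1 it was 1 and without pig 2 it was 6.

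Myeloid and epithelial cells were on the other side. In the myeloid gate 0 members were higher and 36 lower, beside 23.8% and 13.1% of all genes. The member median was -0.61 and the median of all genes 0.01. RPS18 fell by 0.89 (SE 0.146, adjusted p = 0.000326, edgeR), RPL7A by 0.88, RPSA by 0.82 and RPLP2, a protein of the stalk that recruits elongation factors, by 0.81. The 4 members not called were RPL23, RPL39, RPL7L1 and RPL26L1, with log2 differences of -0.30, -0.18, -0.34 and -0.15. The number lower was 18 with total UMIs, 19 without pig 1 and 10 without pig 2. The JCHAIN level given above, which is that of ileal myeloid cells, moved with these values, and its part in the result was not tested.

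In the epithelial gate 0 members were higher and 23 lower, beside 30.1% and 21.7% of all genes. The median was -0.33 for members and 0.03 for all genes. RPL37 was at 2121 and 3053 CPM in epithelial cells and at 6410 and 5929 in ileal B cells, and fell by 0.71 against the other gates (SE 0.127, adjusted p = 0.000361, edgeR). RPL22 fell by 0.54, RPS16 by 0.51 and RPL23 by 0.50. Without the library labelled whole ileum pig 1, 13 members were lower, without pig 1 altogether 0 and without pig 2 14. With total UMIs 5 were lower and with RLE size factors 8.

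The plasma gate showed the largest dependence on scaling. With TMM scaling, which aligns most genes between sums, 1 member was higher and 0 lower, beside 8.46% and 8.96% of all genes. The member median was 0.06 where the median of all genes was -0.36. The called member was RPS21 with 0.36 (SE 0.114, adjusted p = 0.0439, edgeR). When counts were scaled to total UMIs, 0 members were higher and 29 lower, the member median was -0.56, and the median of all genes shifted by -0.64. Without the library labelled whole ileum pig 1, or without either pig, 0 members were higher, and with RLE size factors 6.

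**Figure D2:**
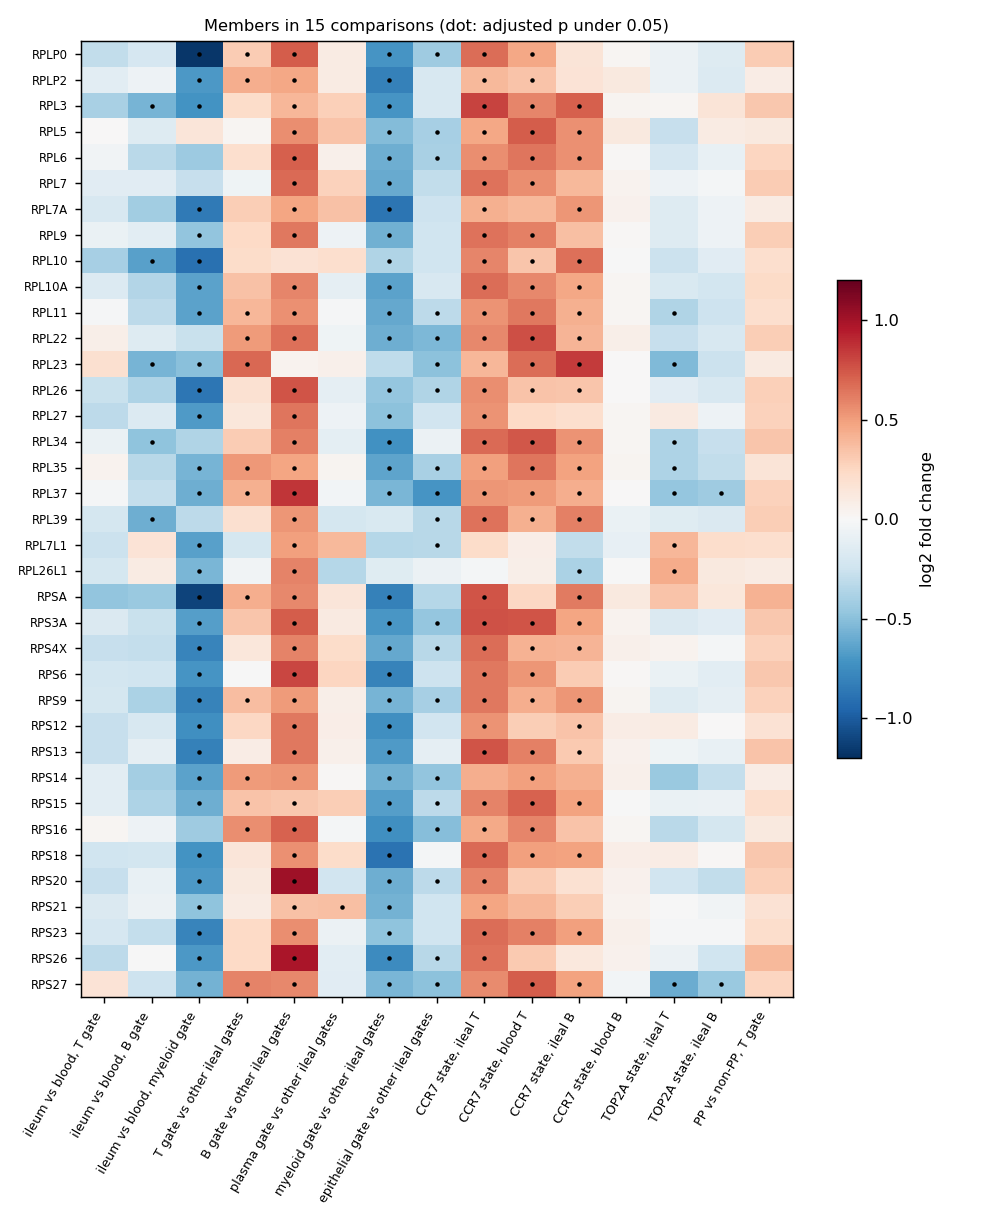
Log2 fold change of 37 of the 40 tested members (rows, large subunit first) in 15 comparisons (columns) on a common color scale, with a dot where the adjusted p was under 0.05. The B gate and CCR7 columns of T cells are mostly red, the myeloid columns mostly blue, and the column of CCR7 state in blood B cells is close to white.

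Tissue was compared within gates, ileum minus blood in the same fit. In the study, ileal cells were released with EDTA and enzyme digestion, while blood cells were isolated in preparation tubes. Tissue and preparation therefore cannot be told apart in these comparisons. Cell state, split by CCR7 and TOP2A below, also differed by tissue within gates. CCR7+ cells were 505 of 8093 and 459 of 7084 ileal T cells (pig 1 and pig 2). In blood they were 530 of 3526 and 932 of 3461 T cells. TOP2A+ cells were 1683 of 6230 and 2661 of 8824 ileal B cells. In blood they were 102 of 1623 and 69 of 1198 B cells. The part of cell state in the tissue results was not tested. In T cells, 0 members were higher and 0 lower, beside 10.7% and 8.25% of all genes, and 5 members had an unadjusted p under 0.05. By DESeq2, 5 members were lower. RPSA, a 40S protein also known as a laminin receptor, stood at 3811 and 3105 CPM in ileal and 5049 and 4359 in blood T cells, and its difference of -0.47 (SE 0.174) had an adjusted p of 0.0751 (edgeR). The groups did not overlap for RPSA, but the difference did not pass. The member median was -0.18 and that of all genes 0.04.

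In B cells, 0 members were higher and 5 lower in ileum, beside 19.3% and 13.1% of all genes. The share of members called lower was thus near that of all genes. The 5 were all of the large subunit, which has 21 of the 40 tested members. The median difference was -0.31 for large and -0.25 for small subunit members, so both subunits were shifted the same way. RPL10 stood at 6746 and 6602 CPM in ileal and 9551 and 10703 in blood B cells, and fell by 0.65 (SE 0.159, adjusted p = 0.00673, edgeR). RPL39, which lines the peptide exit tunnel, fell by 0.59, RPL3, which lies near the peptidyl transferase center, by 0.56, RPL23 by 0.55 and RPL34 by 0.48. The member median was -0.28 where that of all genes was 0.17. The number called lower rose to 17 with RLE size factors, 23 with sums per library and 25 with DESeq2, and it was 0 when either pig was left out.

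RPL23 differed between the lineages in how it went with tissue. It stood at 5208 and 5519 CPM in blood T cells and 6486 and 6062 in ileal T cells, and at 6094 and 5878 in blood B cells and 4264 and 4170 in ileal B cells. By the CCR7 and TOP2A states described below, CCR7+ B cells stood at 6395 and 6722 in ileum and 6076 and 6070 in blood. B cells with neither transcript stood at 4385 and 4194 against 6379 and 5981. CCR7+ T cells stood at 7616 and 7437 against 8070 and 7189, and those with neither at 6746 and 6107 against 4857 and 5174. TOP2A+ cells were lower in ileum in B and higher in T cells. The part of cell state in these values was not tested. The tissue difference in T minus that in B cells was 0.75 (SE 0.209, adjusted p = 0.024, edgeR). It was the 1 member higher of 40, with 0 lower, beside 7.73% and 10.3% of all genes. Members were thus called less often than all genes. Without the library labelled whole ileum pig 1 the value was 0.80 with an adjusted p of 0.0554, and without pig 1 or pig 2 the adjusted p was 0.593 or 0.322 (edgeR). With total UMIs it was 0.0673. The 5 tests of differences between differences were chosen after the data were seen.

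In myeloid cells, 0 members were higher and 32 lower in ileum, beside 22% and 16.3% of all genes. The member median was -0.66 and that of all genes 0.04. RPLP0, the base of the ribosomal stalk, stood at 3505 and 3060 CPM in ileal and 7240 and 6247 in blood myeloid cells, and fell by 1.17 (SE 0.134, adjusted p = 3.42e-05, edgeR). RPSA fell by 1.11 and RPL10 by 0.90. RPL5, which with RPL11 carries the 5S RNA and binds MDM2, did not pass (0.14, SE 0.155), while RPL11 was among the genes called lower. The number lower was 13 without pig 1 and 21 without pig 2.

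This difference went with the depth of the cells. The median UMI count was 6604 and 7513 in blood and 4738 and 5371 in ileal myeloid cells. Within blood myeloid cells the share was 9.17 and 5.98% in cells of 1250 to 2000 UMIs and 15.4 and 13.6% in cells of at least 8000 UMIs. In ileal myeloid cells it was 10.5 and 10.2% in the shallowest and 9.51 and 7.84% in the deepest cells. In cells of 2000 to 4000 UMIs the share was 10.8 and 8.13% in blood and 10.7 and 11.3% in ileum. There, 13 members were higher and 1 lower in ileum. The 1 lower member was RPLP0, with -0.60 (adjusted p = 0.00582, edgeR). The share of all genes called at this depth was not counted, so these numbers are not set against it. The parts of depth, cell subtype, plasma transcripts, cell preparation and tissue in the 32 lower members cannot be told apart by these values.

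**Figure D3:**
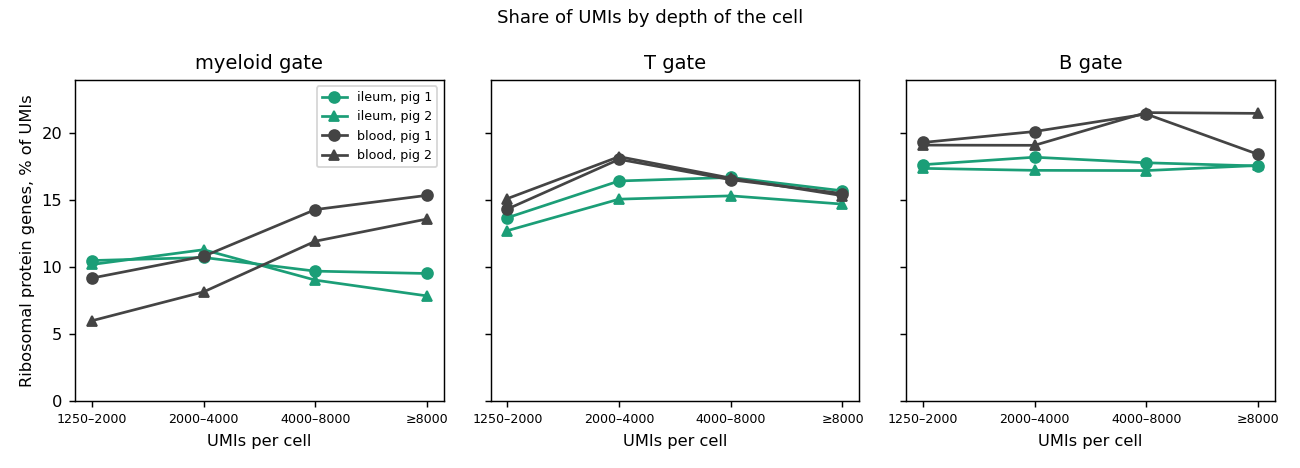
Share of UMIs from member genes (y axis, %) in cells grouped by their UMI count (x axis, 4 classes) in the myeloid, T and B gates, with ileum in green and blood in gray and 1 line per pig. Blood myeloid lines climb from 9.17 and 5.98% to 15.4 and 13.6%, and cross the ileal ones, while the B lines stay between 17.2 and 21.5%.

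T and B cells were then split by CCR7, the chemokine receptor that guides naive and central memory lymphocytes to lymphoid tissue, and by TOP2A, a topoisomerase of dividing cells. TOP2A+ cells had at least 1 UMI of TOP2A, CCR7+ cells had CCR7 but no TOP2A, and cells with neither were the reference for both contrasts, so the contrasts share these cells. Detection of 1 UMI misses many cells with the transcript. Naive genes such as S1PR1, KLF2, LEF1 and TCF7 summed to 869 and 759 CPM in CCR7+ and 249 and 243 in the remaining ileal T cells, and to 964 and 970 against 941 and 952 in blood B cells. Natural killer and innate lymphoid genes summed to 127 and 158 in CCR7+ and 1450 and 1488 in the remaining ileal T cells, and their part in the results was not tested.

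The share of UMIs from member genes was 20.2 and 19.998% in CCR7+ and 15.9 and 14.4% in the remaining ileal T cells. In blood T cells it was 21.2% in both pigs against 15.7 and 16.0%, and in ileal B cells it was 20.2 and 20.6% against 18.3 and 17.8%. In blood B cells it was 19.96 and 21.7% in CCR7+ and 20.7 and 20.9% in the remaining cells, and there the 2 overlap. The median UMI count in ileal T cells was 2956 and 2770 in CCR7+ and 2489 and 2459 in the remaining cells. The median mitochondrial percentage of UMIs was 2.93 and 3.61 in CCR7+ and 3.96 and 4.399 in the remaining ileal T cells. In blood T cells it was 1.75 and 2.76 against 2.91 and 3.5997. In ileal B cells it was 3.11 and 4.11 against 3.98 and 5.09, and in blood B cells 2.78 and 3.76 against 2.66 and 3.66. The part of this percentage in the CCR7 results was not tested.

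**Figure D4:**
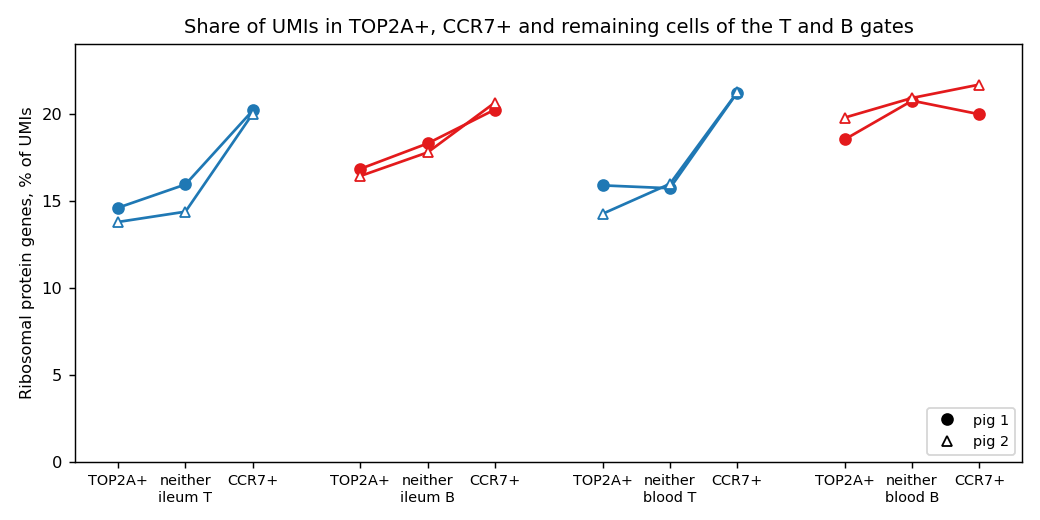
Share of UMIs from member genes (y axis, %) in TOP2A+ cells, cells with neither transcript and CCR7+ cells (x axis) of the T gate (blue) and B gate (red) in ileum and blood, with 1 line per pig. CCR7+ T cells lie at 19.998 to 21.2% in both tissues, and blood B cells show no rise from neither to CCR7+ in pig 1.

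In ileal T cells, 37 of 40 members were higher in CCR7+ cells and 0 lower, beside 6.63% and 4.64% of 9975 genes tested (edgeR). The median was 0.58 for members and -0.01 for all genes. RPL3 stood at 3071 and 2911 CPM in CCR7+ and 2066 and 1749 in the remaining cells, and was higher by 0.81 (SE 0.115, adjusted p = 0.000161, edgeR). RPS3A was higher by 0.77, RPSA by 0.76 and RPS13 by 0.75. The 3 members not called were RPS14 (0.44), RPL7L1 (0.22) and RPL26L1 (-0.02). The dissections were unevenly split by state. Non-PP libraries gave 25 of 505 and 55 of 459 CCR7+ cells, and 3039 of 6989 and 3125 of 6303 remaining cells. Within non-PP the member share was 22.5 and 17.9% in CCR7+ and 16.3 and 13.3% in the remaining cells. Within PP it was 19.9 and 20.7% against 16.9 and 16.3%. The part of dissection in the CCR7 result was not tested. Among cells of 2000 to 4000 UMIs 37 members were likewise higher, and the number was 26 without pig 1 and 4 without pig 2.

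In blood T cells 30 members were higher and 0 lower, beside 7.37% and 7.55% of all genes. The median was 0.50 for members and -0.01 for all genes. RPL22 stood at 3089 and 3119 CPM in CCR7+ and 1815 and 1989 in the remaining cells, and was higher by 0.78 (SE 0.108, adjusted p = 9.05e-05, edgeR). RPS3A was higher by 0.76, RPL34 by 0.75, and RPS27 and RPL5 by 0.72 each. Natural killer and innate lymphoid genes summed to 208 and 94.7 CPM in CCR7+ and 2031 and 1031 in the remaining blood T cells. Naive genes summed to 1489 and 1555 against 692 and 889, and the part of either in the result was not tested. The number higher was 12 without pig 1, 15 without pig 2 and 19 with sums per library. The difference between the ileal and the blood contrast passed for 0 members in either direction, beside 1.85% higher and 0.832% lower of all genes, and 1 member had an unadjusted p under 0.05. DESeq2 called 1.

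In ileal B cells 25 members were higher and 1 lower in CCR7+ cells, beside 13.8% and 10.4% of all genes. The median was 0.42 for members and 0.02 for all genes. RPL23 stood at 6395 and 6722 CPM in CCR7+ and 4385 and 4194 in the remaining cells, and was higher by 0.84 (SE 0.0978, adjusted p = 9e-06, edgeR). RPL3 was higher by 0.72, RPL10 by 0.66, RPSA by 0.62 and RPL39 by 0.61. Markers of cell state moved along with these values. Naive genes summed to 686 and 514 CPM in CCR7+ and 140 and 95.8 in the remaining ileal B cells, cycling genes to 609 and 581 against 1616 and 1796, and B genes to 645 and 593 against 1012 and 1072. Their part in the result was not tested. The member that fell was RPL26L1, at 150 and 138 CPM in CCR7+ and 209 and 230 in the remaining cells, by 0.38 (SE 0.107, adjusted p = 0.0142, edgeR). With total UMIs in place of TMM scaling, 11 were higher and 2 lower, and with pig as a block 29 were higher and 2 lower. Without pig 1 the number higher was 11 and without pig 2 it was 5, with 0 lower in both.

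In blood B cells 0 members were higher and 0 lower by edgeR, beside 0.0201% and 0% of all genes. No member had an unadjusted p under 0.05 (0 of 40), DESeq2 also called 0, and only 2 of 9975 genes were called. The member median was 0.03. RPL23 stood at 6076 and 6070 CPM in CCR7+ and 6379 and 5981 in the remaining blood B cells.

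The difference between the ileal and the blood B contrast was tested directly. The CCR7 split called 2 of 9975 genes in blood B cells, with naive genes at 964 and 970 against 941 and 952 CPM. In ileal B cells naive genes were at 686 and 514 against 140 and 95.8 CPM. The split thus does not part the same kinds of cells in both tissues, and the part of this in the difference was not tested. It was positive and passed for 7 members, beside 5.8% of all genes, and for 0 members it was negative, beside 2.27%. RPL23 differed by 0.83 (SE 0.138, adjusted p = 0.00094, edgeR), RPL3 and RPL39 by 0.69 and 0.68, RPL10 by 0.66, RPL6 by 0.53, RPL34 by 0.52 and RPS27 by 0.51. Of these 7, 6 are large subunit members, as are 21 of the 40 tested. With pig as a block 14 members passed, with DESeq2 13, and without the library labelled whole ileum pig 1 the number was 4. When either pig was left out it was 0.

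Between ileal T and ileal B cells the CCR7 contrast differed for 4 members, which is no larger a share than among all genes. It was larger in T cells for RPLP0 (0.51), RPS26 (0.52) and RPL7L1 (0.52) and smaller for RPL23 (-0.44, SE 0.137, adjusted p = 0.0405, edgeR), beside 5.37% and 7.86% of all genes. RPLP0 stood at 7859 and 7753 CPM in CCR7+ and 5843 and 5196 in the remaining ileal T cells, and at 6812 and 6920 against 7129 and 7230 in ileal B cells. Without the library labelled whole ileum pig 1, 1 member was higher and 1 lower, and when either pig was left out 0. With sums per library 0 members were higher and 1 lower, with no low-count filter 2 were higher and 0 lower, and with total UMIs 6 were higher and 1 lower. Among cells of 2000 to 4000 UMIs 5 were higher and 0 lower.

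TOP2A+ cells were deeper, with 5742 and 4683 UMIs at the median in ileal T cells against 2489 and 2459. Cycling genes summed to 4096 and 4060 CPM in them against 417 and 299. The member share was 14.6 and 13.8% in TOP2A+ and 15.9 and 14.4% in the remaining ileal T cells. In ileal B cells it was 16.8 and 16.4% against 18.3 and 17.8%.

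In ileal T cells 2 members were higher and 6 lower in TOP2A+ cells, beside 9.65% and 9.45% of all genes. The median was -0.14 for members and -0.12 for all genes. RPS27, a zinc finger protein of the small subunit, stood at 4705 and 5288 CPM in TOP2A+ and 6972 and 7321 in the remaining cells, and fell by 0.59 (SE 0.109, adjusted p = 0.000774, edgeR). RPL23 fell by 0.53, RPL37 by 0.47, and RPL34, RPL35 and RPL11 by 0.37, 0.37 and 0.36. Without the library labelled whole ileum pig 1, 3 were lower, with pig as a block 10, and with sums per library 19. Without pig 1 the number lower was 0 and without pig 2 it was 3, and in both the number higher was 0.

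The 2 members that were higher were the paralogs. The share of members called higher was below that of all genes. RPL26L1 stood at 213 and 237 CPM in TOP2A+ and 145 and 169 in the remaining ileal T cells, and was higher by 0.44 (SE 0.106, adjusted p = 0.00671, edgeR). RPL7L1 stood at 157 and 167 against 112 and 121, and was higher by 0.40 (SE 0.114, adjusted p = 0.0203, edgeR). Their partners RPL26 and RPL7 were not called. With no low-count filter neither paralog passed, with an adjusted p of 0.0822 for RPL26L1 and 0.143 for RPL7L1 (edgeR). Among cells of 2000 to 4000 UMIs RPL26L1 had 0.39 with an adjusted p of 0.31, and RPL7L1 -0.05.

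In ileal B cells 0 members were higher and 2 lower in TOP2A+ cells, beside 5.44% and 4.94% of all genes. The share of members called lower was near that of all genes. The 2 were RPS27, which fell by 0.45 (SE 0.109, adjusted p = 0.0129, edgeR), and RPL37, which fell by 0.43. The median was -0.13 for members and -0.09 for all genes. With pig as a block 5 were lower, without the library labelled whole ileum pig 1 the number was 1, without either pig 0, and among cells of 2000 to 4000 UMIs 27. The share of all genes called in that depth window was not counted. The difference between the T and the B contrast passed for 0 members, beside 1.23% and 0.14% of all genes, with 1 at an unadjusted p under 0.05 (edgeR), and 0 by DESeq2.

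**Figure D5:**
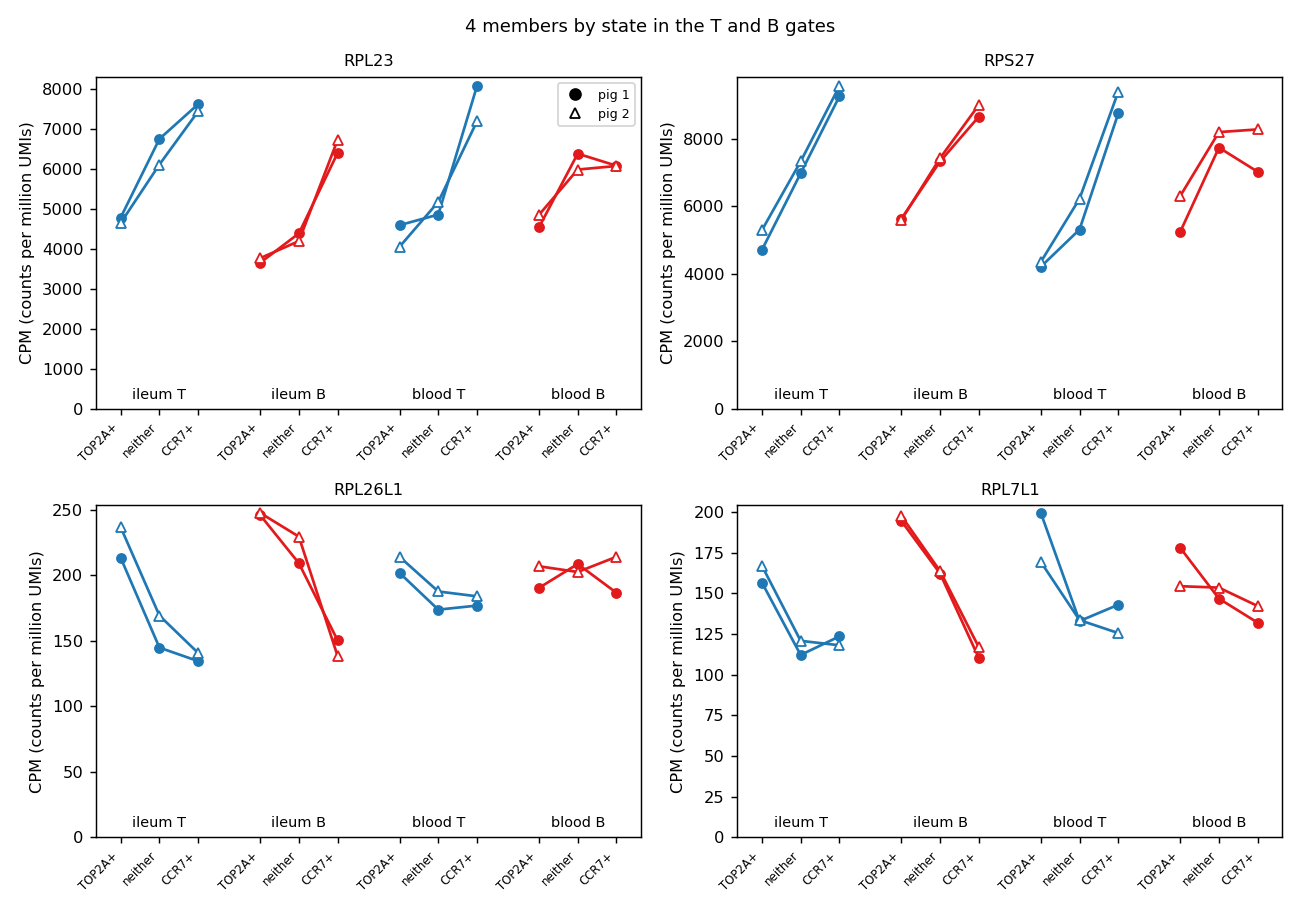
Level of RPL23, RPS27, RPL26L1 and RPL7L1 (y axes from 0, CPM of the summed cells) in TOP2A+ cells, cells with neither transcript and CCR7+ cells of ileal and blood T (blue) and B (red) gates, with 1 line per pig. RPL23 and RPS27 climb from TOP2A+ to CCR7+ in ileal T, ileal B and blood T cells. RPL26L1 goes the other way in ileal T and ileal B cells, and RPL7L1 in ileal B cells.

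T cells of tissue with and without Peyer's patches were compared over libraries. The share was 17.0 and 16.8% in PP and 16.0 and 13.3% in non-PP T cells. In whole ileum, which includes patches, it was 15.2% in both libraries, below both PP values and between the non-PP values. RPSA stood at 4337 and 3813 CPM in PP and 3715 and 2510 in non-PP, and its difference of 0.41 (SE 0.231) had an adjusted p of 0.439 (edgeR). None passed (0 of 40 higher and 0 lower, beside 2.41% and 1.23% of 10602 genes), with 2 members at an unadjusted p under 0.05, and 0 by DESeq2. The median was 0.26 for members and 0.01 for all genes.

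RACK1, a scaffold on the small subunit with no RP symbol, was called in 6 of the 15 comparisons. It was higher in the B gate (0.79) and in CCR7+ cells of ileal T (0.81), blood T (0.55) and ileal B cells (0.43), and lower in the ileal myeloid gate by 0.74 and in ileal against blood myeloid cells by 1.09. RACK1 stood at 1093 and 848 CPM in ileal and 1907 and 1866 in blood myeloid cells.

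Of 15 translation factors, 9 were higher and 0 lower in the ileal B gate, where 30.3% of all genes were higher and 16.1% lower, with EIF4B leading at 0.97. In CCR7+ ileal T cells 9 were higher and 0 lower, beside 6.63% and 4.64% of all genes. EEF1B2, which reloads the elongation factor EEF1A with GTP, stood at 2480 and 2494 CPM in CCR7+ and 1532 and 1332 in the remaining ileal T cells, a difference of 0.96 (SE 0.114, adjusted p = 3.21e-05, edgeR). Of 21 tested ribosome biogenesis genes, 14 were higher in the B gate and 8 in CCR7+ ileal T cells, and 0 were lower, beside the same shares of all genes. MYC, a transcription factor that drives ribosome synthesis, was higher by 2.03 in CCR7+ ileal T, 2.24 in blood T and 2.07 in ileal B cells, at levels of at most 16.3 CPM.

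Mitochondrial ribosomal proteins, which serve the separate ribosome of mitochondria, were followed for comparison. Of 69 tested, 35 were higher and 0 lower in the ileal B gate, beside 30.3% and 16.1% of all genes. In CCR7+ ileal T cells 2 were higher and 0 lower, beside 6.63% and 4.64%. In CCR7+ ileal B cells 2 were higher and 21 lower, beside 13.8% and 10.4%, where the members were mostly higher. In TOP2A+ ileal T cells 18 were higher and 0 lower, beside 9.65% and 9.45%, with MRPL51 at 0.97. In the epithelial gate 22 were higher and 4 lower, beside 30.1% and 21.7%, so the share called higher was near that of all genes. In the T gate 0 were higher and 14 lower, beside 19.8% and 13.5%.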

How the data were processed

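Single-cell RNA-seq (10x Chromium, v2 chemistry) of 8 libraries from 2 pigs was used, and the 4 sequencing runs of each library were taken as 1 library. The authors aligned reads with Cell Ranger to the Sus scrofa 11.1 genome with a modified Ensembl annotation and deposited raw UMI counts, from before their removal of ambient RNA, poor cells and doublets. The deposited counts were used as they stand, with the quality limits of the study.

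Cells were gated with at least 2 UMIs of a marker list and at least 3 times those of each other list, and plasma cells with at least 20 JCHAIN UMIs making up at least 1% of the cell's UMIs. The share of UMIs from member genes is member UMIs over all UMIs of a gate. Counts were summed per pig (groups with at least 20 cells in both pigs) and tested with edgeR 4.0.16 (quasi-likelihood, TMM, filterByExpr, adjusted p under 0.05, R 4.3.3), in 1 fit of 16 gate sums, 1 of 24 state sums and, per library, 1 of 12 sums for the dissections. A gate is compared with the mean of the other ileal gates. Levels are UMIs per 1000000 UMIs of a sum (CPM), and since the assay reads transcript ends, they are compared between cells and not between genes.

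Up to 5 members per direction with the largest change past the threshold were named, along with paralogs and their partners, RPSA, stalk proteins and RPS6, and up to 3 genes per direction from other lists; members that missed a call were named after their values were seen, and 3 members are not reported by name here. The members and lists were chosen with earlier results of these data known. Alternatives were RLE size factors, no low-count filter, total UMIs, pig as a block, DESeq2 1.42.0, sums per library, a depth window, doublet removal (Scrublet in scanpy 1.11.5) and leaving out a library or a pig. Pig numbers pair the samples by label. Deviations of the pig 1 sums from their group means correlated with one another at a median of 0.149 among 8 gate sums. The median was 0.214 among 12 state sums and 0.034 among 6 dissection sums. The test was checked for ileum against blood T cells on simulated counts, with known changes in genes drawn from all those tested. Members were not simulated apart from other genes. Small changes were mostly missed there, so a member that was not called is not shown to be unchanged.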

Additional observations from a re-analysis of the deposited data

Results flagged for a closer look

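For 12 combinations of gene and contrast, the test of the difference between 2 groups' effects passed (edgeR, log2 scale). Each of 5 such contrasts was tested for 40 members, and the contrasts were chosen after the data were seen. The tissue effect of RPL23 was 0.75 larger in T than in B cells, where 7.73% of all genes were called higher and 10.3% lower. Cell states were pooled in that test. The CCR7 effect in ileal B minus that in blood B cells was 0.83 for RPL23, 0.69 for RPL3, 0.68 for RPL39, 0.66 for RPL10, 0.53 for RPL6, 0.52 for RPL34 and 0.51 for RPS27. Of all genes, 5.8% were higher and 2.27% lower there. In blood B cells the CCR7 split itself called almost no genes, as given above. The CCR7 effect in ileal T minus ileal B cells was 0.51 for RPLP0, 0.52 for RPL7L1, 0.52 for RPS26 and -0.44 for RPL23. There, 5.37% of all genes were higher and 7.86% lower. In this contrast and in the tissue contrast, members were called no more often than all genes.

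Barcodes outside the comparisons also held member UMIs. In barcodes of 10 to 100 UMIs, which mostly hold free RNA, the member share was 15.8 and 16.0% in PP (pig 1 and pig 2), 11.9 and 11.2% in non-PP, 14.6 and 14.7% in whole ileum, and 16.1 and 14.8% in PBMC. In barcodes above the mitochondrial limit it was 8.49 and 9.88% in PP, 5.69 and 8.03% in non-PP, 9.27 and 9.76% in whole ileum, and 5.80 and 7.30% in PBMC. The part of either in the shares of the cells was not tested.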

How the results depend on the processing

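Shares of all genes called were counted for the main setting only, so the numbers of members under the alternatives stand without them. Doublet removal moved 0 counts by over 1.5 times. The depth window gives no value for the 5 ileal gate comparisons, and sums per library give none for the dissections. Among 234 results of named genes the replicate block ended 0 calls, doublet removal 2, DESeq2 12 and sums per library 24. RLE size factors ended 28, no low-count filter 28 and total UMIs 48. Leaving out the library labelled whole ileum pig 1 ended 50, and the depth window ended 41 of the results it covers, besides the sign changes below. Leaving out either pig, which keeps 1 sum in each compared group, ended more of these calls than any other alternative. Switching the scaling shifted the median of all genes by -0.64 to 0.21 on the log2 scale. Named genes that changed sign were, in the depth window, RPS4X (0.26), RPS6 (0.44), RPLP2 (0.37), RRN3 (-0.44), WDR12 (1.64) and MRPS28 (0.12) in ileal against blood myeloid cells and RPL7L1 (-0.046) and MRPS28 (-2.59) in TOP2A+ ileal T cells, and, with total UMIs, RPS21 (-0.25) and NOP58 (-0.011) in the plasma gate. For other results that moved, the cause was not tested. Members under the low-count filter, and states with few cells, limit what these depths can show.

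With RLE size factors, members higher numbered 8 in the T gate, 22 in the B gate and 6 in the plasma gate, and members lower numbered 17 in ileal against blood B cells and 8 in the epithelial gate. With total UMIs and no TMM, members higher numbered 27 in the T gate, 0 in the plasma gate, 0 in the tissue difference of T minus B, 11 in CCR7+ ileal B cells, 4 in the CCR7 difference of ileal B minus blood B and 6 in the CCR7 difference of ileal T minus ileal B, and members lower numbered 3 in ileal against blood B cells, 29 in the plasma gate, 18 in the myeloid gate, 5 in the epithelial gate, 2 in CCR7+ ileal B cells and 1 in the CCR7 difference of ileal B minus blood B. With no low-count filter, members higher numbered 0 in the plasma gate, 0 in TOP2A+ ileal T cells and 4 in the CCR7 difference of ileal B minus blood B, and members lower numbered 0 in the CCR7 difference of ileal T minus ileal B. With DESeq2, members higher numbered 9 in the plasma gate, 4 in the tissue difference of T minus B, 1 in TOP2A+ ileal B cells, 1 in the CCR7 difference of ileal T minus blood T and 13 in the CCR7 difference of ileal B minus blood B, and members lower numbered 5 in ileal against blood T cells, 25 in ileal against blood B cells, 1 in the T gate, 11 in the epithelial gate, 2 in CCR7+ ileal B cells, 6 in TOP2A+ ileal B cells and 1 in the CCR7 difference of ileal B minus blood B. With sums per library, members higher numbered 29 in the T gate, 6 in the plasma gate, 4 in the tissue difference of T minus B, 19 in CCR7+ blood T cells, 1 in TOP2A+ ileal B cells and 0 in the CCR7 difference of ileal T minus ileal B, and members lower numbered 1 in ileal against blood T cells, 23 in ileal against blood B cells, 2 in CCR7+ ileal B cells, 19 in TOP2A+ ileal T cells and 2 in the TOP2A contrast of ileal T minus ileal B. With pig as a replicate block, the pairing of the samples, members higher numbered 2 in the plasma gate, 1 in the CCR7 difference of ileal T minus blood T and 14 in the CCR7 difference of ileal B minus blood B, and members lower numbered 2 in CCR7+ ileal B cells, 10 in TOP2A+ ileal T cells and 5 in TOP2A+ ileal B cells. In cells of 2000 to 4000 UMIs, members higher numbered 13 in ileal against blood myeloid cells, 0 in TOP2A+ ileal T cells, 3 in the CCR7 difference of ileal B minus blood B and 5 in the CCR7 difference of ileal T minus ileal B, and members lower numbered 3 in ileal against blood T cells, 1 in ileal against blood myeloid cells, 2 in CCR7+ ileal B cells, 27 in TOP2A+ ileal B cells and 0 in the CCR7 difference of ileal T minus ileal B. Leaving out that whole ileum library, members higher numbered 0 in the plasma gate, 0 in the tissue difference of T minus B, 4 in the CCR7 difference of ileal B minus blood B and 1 in the CCR7 difference of ileal T minus ileal B, and members lower numbered 13 in the epithelial gate, 3 in TOP2A+ ileal T cells and 1 in TOP2A+ ileal B cells. Without pig 1 or pig 2, in fits that take their spread from the other groups, members higher numbered 1 to 6 in the T gate, 8 to 26 in the B gate, 0 in the plasma gate, 0 in the tissue difference of T minus B, 4 to 26 in CCR7+ ileal T cells, 12 to 15 in CCR7+ blood T cells, 5 to 11 in CCR7+ ileal B cells, 0 in TOP2A+ ileal T cells, 0 in the CCR7 difference of ileal B minus blood B and 0 in the CCR7 difference of ileal T minus ileal B, and members lower numbered 0 in ileal against blood B cells, 13 to 21 in ileal against blood myeloid cells, 10 to 19 in the myeloid gate, 0 to 14 in the epithelial gate, 0 in CCR7+ ileal B cells, 0 to 3 in TOP2A+ ileal T cells, 0 in TOP2A+ ileal B cells and 0 in the CCR7 difference of ileal T minus ileal B.

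Adding the genes named only in the name table made the member share 29.8% in the blood B gate, 24.5% in the blood T gate, 19.7% in the blood myeloid gate, 22.0% in the blood plasma gate, 25.4% in the ileal B gate, 22.7% in the ileal T gate, 15.1% in the epithelial gate, 13.5% in the ileal myeloid gate and 12.5% in the ileal plasma gate. In the depth window the share was 19.6% in the blood B gate, 18.1% in the blood T gate, 9.46% in the blood myeloid gate and 10.999% in the ileal myeloid gate. At a mitochondrial limit of 5% it was 17.3% in the blood T gate.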
